A study of Homo sapiens with 6 samples.

Results

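SP1, SP3, SP4, KLF2, KLF4, KLF5, KLF6, KLF9, KLF10 and KLF11 are transcription factors of the SP and KLF families, and their RNA is described here in LoVo colorectal cancer cells with and without the kinase inhibitor DCC-2036. They were taken by gene symbol from the deposited RNA table and are 10 of its 19223 symbols. The study asked how DCC-2036 (rebastinib) acts on colorectal cancer cells, and it places SP1 between the kinases FGR, PI3K and AKT and the gene DKK1, a secreted inhibitor of Wnt signalling. LoVo is 1 established line from a human colorectal adenocarcinoma, labelled as Dukes' type C. The 3 Control libraries came from cells given vehicle and the 3 DCC-2036 libraries from cells given 2.5 μM DCC-2036. The labels give 48 h for both groups, DMEM with serum and antibiotics as the medium, and no genetic change in either group. The paper gives a shorter treatment in a figure legend and another medium for this line in its methods. No label says that the libraries came from separate experiments, so the p-values measure only the spread between these samples, which may be technical.

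Each library has 1 value per RefSeq transcript, a signal that the authors had adjusted to a common depth and that is not a read count. The column totals of these values were 38997229, 39956227 and 40587145 in the Control libraries, compared with 43279603, 45957597 and 48023306 in the treated ones. The number of reads behind a value is not known from the table, so no counting error can be given. Unless stated otherwise, a value belongs to the transcript of a gene with the highest mean over the 6 libraries, and a fold change is a difference of means on the log2(value + 1) scale.

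The labelled cell type was compared with markers. KRT8, KRT18, KRT19, EPCAM and CDH1, which mark epithelial cells in general, had means between 2525 and 84080 over the 6 libraries, and CDX2, an intestinal factor, had a mean of 291. Of the 12 epithelial markers, general ones and colonic ones together, 5 stayed under 10 in every library, namely CDX1, VIL1, CDH17, LGALS4 and CEACAM5. CDX1 was listed at 0 in all 6. The libraries thus hold an epithelial signal, but several markers that define colonic cells were at or near 0. LoVo is the name in the labels, and the identity of the line was not tested here. The immune markers PTPRC and MS4A1 were listed at 0, the most abundant of that list was CD68, and the list summed to between 208.6 and 285.4 in each library. The fibroblast list summed to between 369.6 and 552.5, most of it COL1A1, and the endothelial list to between 10.5 and 41.3, led by VWF. The 12 epithelial markers summed to between 104485 and 115000 in Control and between 148349 and 188450 in DCC-2036, most of it the general marker KRT8. CDH1 and KRT8 were called higher and KRT20, a colonic marker, lower, as defined below, and CDX2 had a log2 fold change of -0.09, so the rise of the sum is not one of colonic markers. KRT8 lost its call without any 1 of the Control libraries or without DCC-2036 library 2 (adjusted p up to 0.0146, limma), and KRT20 without Control library 1 or 3, with no filter on low values and with the replicate number as a block (up to 0.0214). The part of this shift in the values of the SP and KLF genes was not tested.

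SP and KLF proteins carry zinc fingers at their C-terminal end and bind GC-rich boxes and CACCC motifs, which are common in promoters. SP1, SP3 and SP4 have long activating regions and compete for the same boxes, whereas KLF proteins differ in the parts that bind coactivators or corepressors, so that some activate and others repress. In the intestinal epithelium, KLF5 is known from proliferating crypt cells and KLF4 from cells that have left the cycle.

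All 10 genes passed the filter on low values, which asked for 3 libraries or more with a value of 10 or above. At an adjusted p under 0.01 (limma, two-sided, Benjamini-Hochberg over all 12725 tested genes), 0 of the 10 were called higher with DCC-2036, against 19.2% of all tested genes. SP4 was the 1 member called lower, against 22.7% of all tested genes (41.9% in either direction). At an unadjusted p under 0.05 (limma), 5 were higher and 3 lower, 8 of 10 against 66.6% of all tested genes, 30.5% higher and 36.1% lower. With the adjusted limit set to 0.05, KLF5, KLF6, KLF9 and KLF11 were called higher and SP4, KLF2 and KLF4 lower, 7 of 10 against 62.2% of all tested genes, 28.5% higher and 33.7% lower. Of these 7, SP4 stayed under 0.05 in every alternative run, and the other 6 each went above it in some, as given with each gene below, with an adjusted p of up to 0.128 (limma). The values of Control and DCC-2036 did not overlap in 8 of the 10 genes, 5 of them higher and 3 lower with DCC-2036, where 71.1% of all tested genes had groups without overlap, 32.9% higher and 38.1% lower. Whether the shares of the members differ from those of the whole table was not tested. The median log2 fold change of the 10 was 0.21, against -0.09 over all tested genes. Leaving out any 1 Control library or DCC-2036 library 2 lowered the number of calls over the whole table. These runs called 928 to 1054 genes higher and 1514 to 1708 lower, against 2442 and 2887 with all libraries. Loss of a call in them, as given for KRT8 above and for genes below, was thus common to many tested genes.

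**Figure D1:**
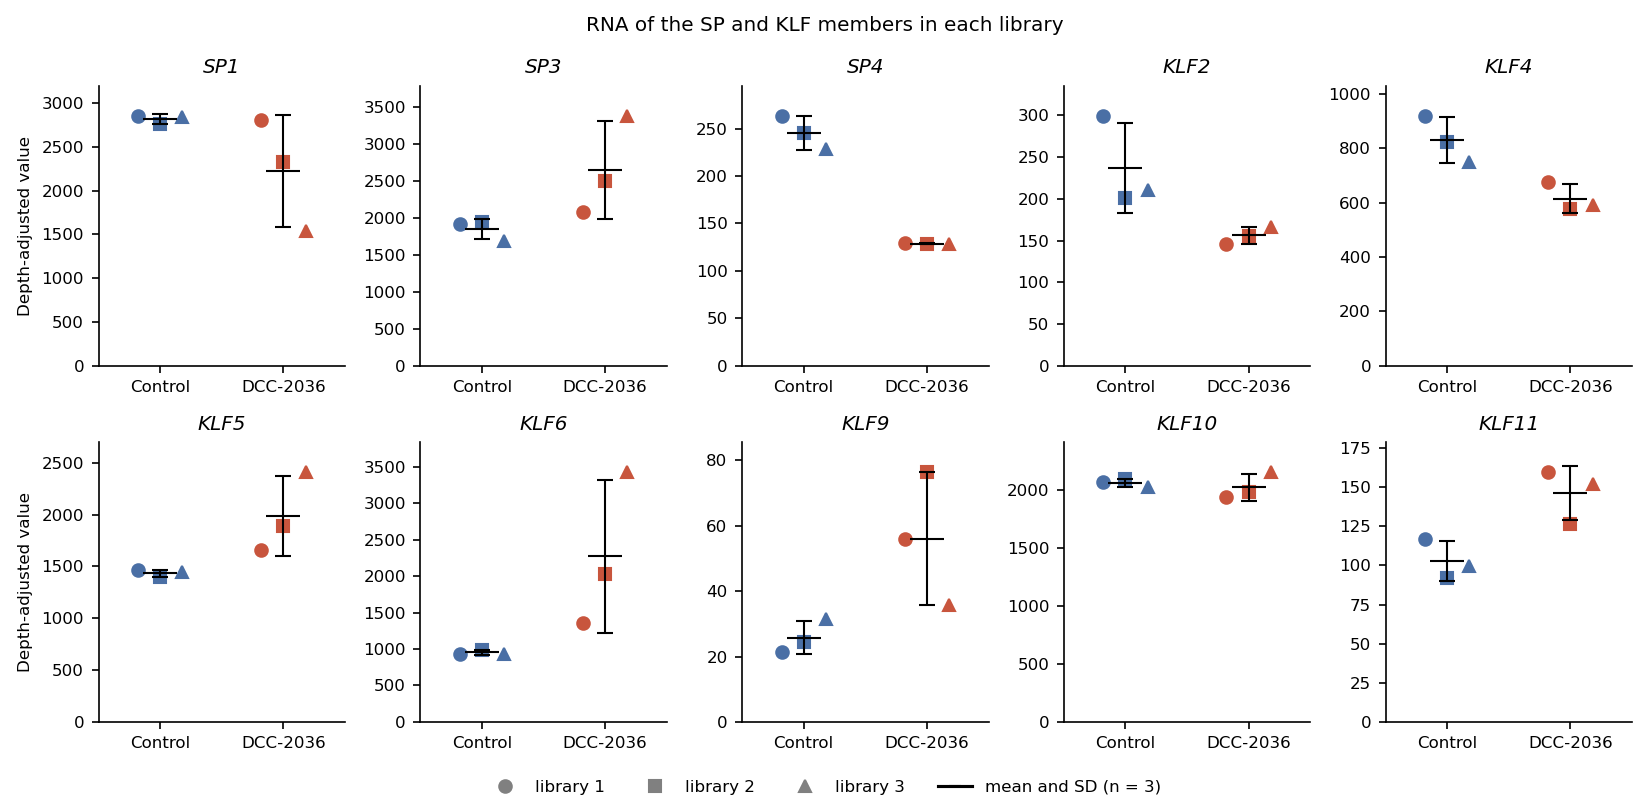
Depth-adjusted values of the 10 SP and KLF genes in each library, with Control in blue and DCC-2036 in red. Symbols stand for libraries 1 to 3 of a group, which have no order, and black bars for the mean and SD (n = 3). The groups overlap in SP1 and KLF10, and SP4 lies near 129 in each DCC-2036 library against 228 to 263 in Control.

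SP1, a broadly expressed activator, lies at chr12:53380176-53416446 on the forward strand (GENCODE 29, GRCh38). The deposited table has no coordinates or build. The Control libraries measured 2855, 2759 and 2844, and the DCC-2036 libraries 2808, 2324 and 1539. DCC-2036 library 1 lay within the Control range, library 2 below it, and library 3 far below both. The SD on the log2 scale was 0.027 in Control and 0.44 in DCC-2036, so that the spread lay almost wholly within the treated group. The log2 fold change was -0.39 (95% interval -0.92 to 0.14, adjusted p = 0.168, limma with Benjamini-Hochberg), which is not a call, and an exact two-sided permutation test gave p = 0.2, where 3 libraries against 3 cannot go below 0.1. Without DCC-2036 library 3 the log2 fold change was -0.14, and without DCC-2036 library 1 it was -0.58, at an adjusted p of 0.0352 (limma).

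Because the study links SP1 to DKK1 through the promoter, the bases before both genes are shown from the RefSeq promoter windows (GRCh38.p14), 5′ to 3′ on the strand of the gene, with the GC box GGGCGG or its reverse complement CCGCCC in capitals. The DKK1 window is chr10:52314031-52314280 on the forward strand and that of SP1 is chr12:53379926-53380175 on the forward strand, both ending at the base before the RefSeq start.
DKK1: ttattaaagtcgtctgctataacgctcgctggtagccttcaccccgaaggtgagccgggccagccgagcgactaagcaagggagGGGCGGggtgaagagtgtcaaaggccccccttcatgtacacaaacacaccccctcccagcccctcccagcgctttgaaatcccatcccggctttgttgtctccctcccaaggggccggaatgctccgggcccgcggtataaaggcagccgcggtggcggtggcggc
SP1: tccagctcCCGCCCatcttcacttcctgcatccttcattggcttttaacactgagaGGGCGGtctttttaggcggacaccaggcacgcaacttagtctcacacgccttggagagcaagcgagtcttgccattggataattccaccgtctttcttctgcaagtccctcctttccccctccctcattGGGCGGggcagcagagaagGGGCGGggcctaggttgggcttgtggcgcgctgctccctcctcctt
In the DKK1 window the search on both strands found 1 GC box, whose nearer end lies 161 bases before the start, and 3 matches to CACCC, 1 of which shares bases with the GC box. In the SP1 window it found 4 GC boxes, the nearest ending 41 bases before the start, and 0 matches to CACCC. Among the first windows of 27305 symbols, each 250 bases long, 42.2% hold at least 1 GC box and 53.7% at least 1 CACCC on either strand, and among tested genes with a window 67.9% and 58.5%. A match is a string of letters, and the study's own assays of SP1 at the DKK1 promoter were not used here. The study predicted more than 1 SP1 site in that promoter and assayed such sites by mutation and chromatin immunoprecipitation. A search for the exact GC box need not find all of them.

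The RNA of DKK1 itself measured 13198, 14663 and 13694 without the inhibitor and 2140, 2001 and 2535 with it. All 3 treated libraries lay far below Control, with the lowest value in library 2. SP1 had its lowest value in library 3, where DKK1 was the highest of the treated libraries, so the order of the 3 treated libraries differed between these genes. Library 3 was the treated library farthest from Control in 60.4% of all tested genes. A relation between the RNA of SP1 and that of DKK1 was not tested. The study followed SP1 in treated cells as protein, by Western blotting, which RNA values do not show. FGR, the kinase at the head of the axis, was listed at 0 in all 6 libraries. Of the 8 genes of the axis around SP1, 7 were tested. Of these, 0 were called higher and 1 lower, against 19.2% and 22.7% of all tested genes. The gene called lower was DKK1 (log2 fold change -2.64, adjusted p = 0.000178, limma with Benjamini-Hochberg). At an unadjusted p under 0.05, 2 were higher and 2 lower (limma), against 30.5% and 36.1% of all tested genes. The median log2 fold change of the tested axis genes was -0.05.

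The study's primers for SP1 are shown because they say which SP1 RNA a PCR would read. The forward primer TGGCAGCAGTACCAATGGC matches chr12:53382319-53382337 and the reverse primer CCAGGTAGTCCTGTCAGAACTT matches the opposite strand at chr12:53382423-53382444 (GENCODE 29, GRCh38). Both lie in the coding part of exon 3 of the SP1 transcripts linked to the deposited RefSeq entries and span a product of 126 bases. The table lists 3 SP1 transcripts, and the lowest had 95.4% of the mean of the highest. How far they share reads is not known from the table. Their log2 fold changes ran from -0.39 to -0.38, with adjusted p-values between 0.166 and 0.175 (limma with Benjamini-Hochberg over 32323 transcripts).

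Among 10206 other tested genes with a mean of at least 100, the 5 with the profile over 6 libraries most like that of SP1 were LRRC8A, GNL3L, NUP155, ANKRD46 and EXTL3. Likeness was the root mean square difference of centred log2 values, which was 0.027 for LRRC8A, 0.028 for GNL3L, 0.029 for NUP155, 0.037 for ANKRD46 and 0.038 for EXTL3, against a median of 0.44. LRRC8A, a subunit of a volume-regulated anion channel, stood at 1193, 1203 and 1237 in the Control libraries, compared with 1175, 998 and 673 in the treated ones. As in SP1, the treated libraries were spread out and library 3 was the lowest. SP3 was far from SP1 on this measure (0.64, place 7887), and KLF4 was the nearest of the other members (0.23, place 1464).

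SP3, which binds the same boxes as SP1 and can activate or repress, lies at chr2:173906459-173965702 on the reverse strand. The Control libraries measured 1912.5, 1941.5 and 1690.5, and the DCC-2036 libraries 2075, 2502 and 3377. All 3 treated values lay above Control, and library 3, the one with the lowest SP1, had the highest SP3. The log2 fold change was 0.49 (95% interval 0.036 to 0.95, adjusted p = 0.0596, limma with Benjamini-Hochberg), which did not pass either limit. Without DCC-2036 library 3 it was 0.30, and without DCC-2036 library 1 it was 0.66 and under the limit of 0.05 (adjusted p = 0.0134, limma). With equal library totals it was 0.30 (adjusted p = 0.164, limma), while median-of-ratios scaling, a pseudocount of 10 and a trend in limma gave an adjusted p under 0.05 (0.0453, 0.0482 and 0.0274). Its 3 listed transcripts had means of at least 99.0% of the leading one and log2 fold changes of 0.49 to 0.50.

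The ratio of SP3 to SP1 within a library does not depend on library scaling. On the log2 scale it was -0.58, -0.51 and -0.75 in the Control libraries, compared with -0.44, 0.11 and 1.13 in the treated ones. SP3 values were below SP1 values in every Control library and in DCC-2036 library 1, and above them in DCC-2036 libraries 2 and 3. These values are not adjusted for transcript length, so the sign of the log2 ratio does not say which RNA was more abundant. The difference of the group means was 0.88, and 0.45 without DCC-2036 library 3. This ratio and that of KLF5 to KLF4 were chosen after the values were seen and are given without a test.

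**Figure D2:**
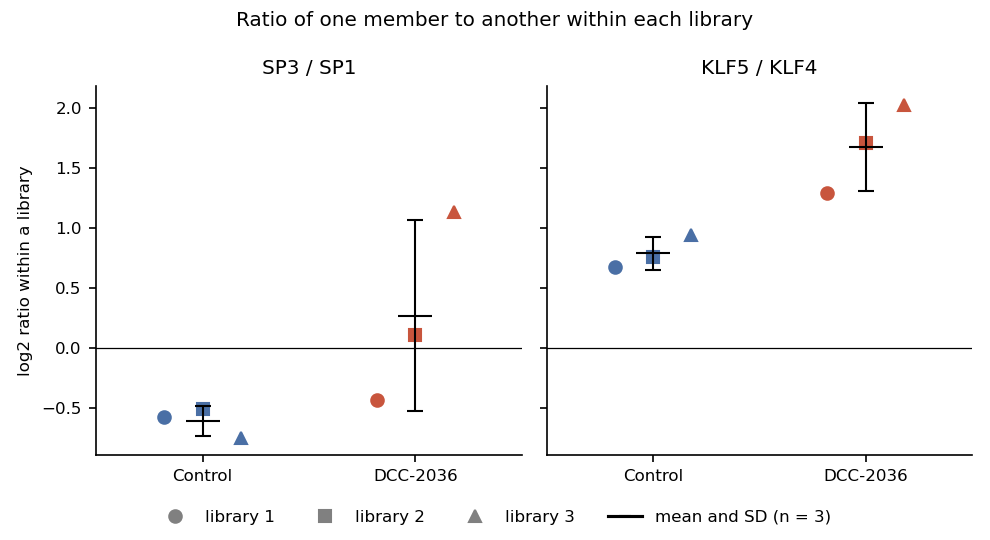
Log2 ratio of the depth-adjusted values of SP3 to SP1 and of KLF5 to KLF4 within each library, with Control in blue and DCC-2036 in red. Symbols stand for libraries, bars for the mean and SD (n = 3), and both ratios were higher in each DCC-2036 library than in every Control library.

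SP4, the member of this subfamily best known from neurons, lies at chr7:21428034-21514822 on the forward strand. The Control libraries measured 263.4, 245.0 and 228.1, and the DCC-2036 libraries 129.6, 128.8 and 127.9. The treated libraries were nearly identical to each other and lay below every Control library. SP4 fell to 52.45% of the Control mean, a log2 fold change of -0.92 (SE 0.10, 95% interval -1.16 to -0.68, adjusted p = 0.000704, limma with Benjamini-Hochberg). The exact two-sided permutation test gave p = 0.1, the smallest that 3 against 3 allow. All 3 listed SP4 transcripts were called lower, with log2 fold changes between -0.93 and -0.92, and these were the 3 of 23 member transcripts called at an adjusted p under 0.01 (limma with Benjamini-Hochberg). Over all 32323 tested transcripts, 6379 were called higher and 7250 lower. The lowest SP4 transcript had 98.2% of the mean of the leading one, and how far they share reads is not known. They are thus 1 result for the gene. A microRNA gene, MIR1183, lies inside SP4 on the same strand.

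The bases before SP4 and before KLF6, the members with the lowest and the highest log2 fold change, are shown to set sequence beside response. They end at the base before the outermost annotated start, at chr7:21427833-21428033 on the forward strand for SP4 and chr10:3785282-3785459 on the reverse strand for KLF6 (RefSeq, GRCh38.p14), with GC boxes on either strand in capitals.
SP4: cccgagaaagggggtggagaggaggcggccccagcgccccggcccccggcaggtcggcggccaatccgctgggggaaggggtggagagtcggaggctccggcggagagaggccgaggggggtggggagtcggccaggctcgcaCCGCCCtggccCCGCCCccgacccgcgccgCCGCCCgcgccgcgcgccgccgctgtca
KLF6: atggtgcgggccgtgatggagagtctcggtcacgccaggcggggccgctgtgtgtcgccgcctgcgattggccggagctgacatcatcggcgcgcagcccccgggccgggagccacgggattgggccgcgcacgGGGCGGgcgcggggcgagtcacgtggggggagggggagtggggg
The SP4 stretch holds 3 GC boxes and 3 CACCC matches, none sharing bases, and the KLF6 stretch 1 GC box and 0 CACCC matches. Over the full 250 bases before the RefSeq start, the number of GC boxes was 4 in SP1, SP4, KLF2 and KLF4, 2 in KLF6 and KLF11, 1 in SP3, and 0 in KLF5 and KLF9. A promoter window was found for 9 of the 10 members, and that of KLF10 was not used here. The members with the most boxes had log2 fold changes below 0 and those with fewer above 0, a pattern noticed after the values were seen and not tested, and SP1 was not called. Over the table as a whole the median moved little with the number of boxes. Across 10458 tested genes with a window (82.2%), the median log2 fold change was -0.10 with 0 boxes, -0.11 with 1, -0.11 with 2, -0.02 with 3 and -0.09 with 4 or more. Genes called lower held a GC box in 67.5% of windows, genes called higher in 68.4% and genes not called in 67.9%, at a median GC content of 64.4%, 65.2% and 65.2%.

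KLF2 and KLF4 are close relatives that are induced through the kinase ERK5 (MAPK7) and MEF2 factors and are known for restraining growth. KLF2, at chr19:16324817-16327874 on the forward strand, measured 299.3, 200.7 and 210.6 in the Control libraries, compared with 146.3, 155.9 and 166.3 in the treated ones. KLF4, at chr9:107484852-107490482 on the reverse strand, measured 918.8, 824.4 and 749.9 without and 675.0, 577.0 and 590.0 with the inhibitor. In both genes each treated value lay below each Control value, and in both Control library 1 was the highest. The log2 fold change of KLF2 was -0.58 (95% interval -0.99 to -0.16, adjusted p = 0.0259) and that of KLF4 was -0.43 (95% interval -0.73 to -0.14, adjusted p = 0.0214), both by limma with Benjamini-Hochberg and both short of the limit of 0.01. KLF2 went above 0.05 without DCC-2036 library 1 or 2 and with the replicate block (adjusted p up to 0.0689, limma), and KLF4 without Control library 1 or 2 or DCC-2036 library 2 (up to 0.0785). Without Control library 1 the log2 fold change of KLF2 was -0.40. KLF2 has 1 listed transcript, and the second of KLF4 had 99.7% of the mean of the first.

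Of the 5 genes of the ERK5 and MEF2 list, all tested, 1 was called higher and 1 lower, against 19.2% and 22.7% of all tested genes, with a median log2 fold change of -0.16. MAPK7 fell from 299.9, 303.7 and 325.0 to 67.5, 113.1 and 58.1, a log2 fold change of -2.01 (SE 0.24, adjusted p = 0.00101, limma with Benjamini-Hochberg), with every treated value under the lowest Control value. MEF2D, one of the factors that ERK5 phosphorylates, rose by 0.60 (adjusted p = 0.00614, limma with Benjamini-Hochberg), a call that was lost without any 1 of the Control libraries or without DCC-2036 library 2, with an adjusted p of up to 0.0285 (limma), and with equal library totals (0.0137).

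KLF5, an activator tied to proliferation, lies at chr13:73054976-73077542 on the forward strand. The Control libraries measured 1465, 1399 and 1442, and the DCC-2036 libraries 1659, 1893 and 2409. Every treated library lay above Control, with library 3 the highest. The log2 fold change was 0.45 (95% interval 0.085 to 0.82, adjusted p = 0.0392, limma with Benjamini-Hochberg), and the second listed transcript, at 91.6% of the leading one, gave 0.46. Without DCC-2036 library 3 the log2 fold change was 0.30. With equal library totals it was 0.25, at an adjusted p of 0.125 (limma), and the adjusted p was also above 0.05 without any 1 of the Control libraries or without DCC-2036 library 2 (up to 0.109), with no filter on low values and with the replicate block (0.0686 and 0.0604). With KLF4 lower and KLF5 higher, the log2 ratio of KLF5 to KLF4 was 0.67, 0.76 and 0.94 in the Control libraries, compared with 1.30, 1.71 and 2.03 in the treated ones. The difference of the group means was 0.89, and 0.71 without DCC-2036 library 3, so this ratio depended less on that library than the ratio of SP3 to SP1.

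KLF6, a zinc finger factor induced by injury and stress, lies at chr10:3775996-3785281 on the reverse strand and had the highest log2 fold change of the 10. The Control libraries measured 937.4, 994.0 and 928.6, and the DCC-2036 libraries 1363, 2029 and 3428. The treated values lay above Control and far from each other, with an SD on the log2 scale of 0.67 against 0.053 in Control. The ratio of the arithmetic means was 2.385, and the log2 fold change, from means of log2 values, was 1.15 (SE 0.32, 95% interval 0.39 to 1.91, adjusted p = 0.0192, limma with Benjamini-Hochberg). The limit of 0.01 was passed without DCC-2036 library 1 (log2 fold change 1.47, adjusted p = 0.00241, limma), and also without library 3 (0.80, adjusted p = 0.00924), and with a trend in limma (0.00603). Without Control library 1 or 3 the adjusted p was above 0.05 (0.0561 and 0.0568, limma). The other 2 listed transcripts had 88.7% and 87.5% of the leading mean and a log2 fold change of 1.14.

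KLF9, a repressor induced by glucocorticoids and thyroid hormone, lies at chr9:70384597-70414624 on the reverse strand and has 1 listed transcript. It had the lowest values of the 10, with 21.5, 24.5 and 31.4 in the Control libraries, compared with 56.0, 76.4 and 35.9 in the treated ones. Here DCC-2036 library 3 was the treated library nearest to Control, unlike in SP1, SP3, KLF5 and KLF6. The log2 fold change was 1.04 (SE 0.29, 95% interval 0.35 to 1.73, adjusted p = 0.0191, limma with Benjamini-Hochberg). Without DCC-2036 library 3 it was 1.32 and passed the limit (adjusted p = 0.00245, limma), while without Control library 1 or 2 the adjusted p was above 0.05 (0.0648 and 0.0554, limma).

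KLF10 and KLF11 are repressors that TGF-β induces and that recruit the SIN3A and HDAC corepressors. KLF10, at chr8:102648779-102655902 on the reverse strand, measured 2068, 2093 and 2026 without and 1934, 1981 and 2152 with the inhibitor. The groups overlapped, with the lowest and the highest value both among the treated libraries. Its log2 fold change was -0.03 (95% interval -0.26 to 0.20, adjusted p = 0.798, limma with Benjamini-Hochberg), 0.05 with median-of-ratios scaling and -0.23 with equal library totals. A scaling moves all genes by nearly the same amount, so the distance of KLF10 to the median of all tested genes stayed at 0.06. The sign of its log2 fold change thus follows the scaling. KLF11, at chr2:10042849-10054836 on the forward strand, measured 116.7, 92.0 and 99.4 in the Control libraries, compared with 159.6, 126.8 and 152.3 in the treated ones. Each treated value lay above each Control value. The log2 fold change was 0.51 (95% interval 0.16 to 0.85, adjusted p = 0.0206, limma with Benjamini-Hochberg). With equal library totals it was 0.31, at an adjusted p of 0.128 (limma), and without Control library 2 or 3 the adjusted p was 0.0774 or 0.0675. An antisense gene overlaps KLF11, and the library kit named in the labels does not mark strand, so reads of the 2 genes cannot be told apart. The 2 KLF10 and 3 KLF11 transcripts followed their leading ones, at no less than 93.7% and 96.2% of their means.

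Around this pair, 8 of 9 genes of the TGF-β list were tested, 3 called higher and 1 lower, against 19.2% and 22.7% of all tested genes, with a median log2 fold change of -0.05. SMAD7, a feedback inhibitor of the receptor, rose from 170.1, 188.9 and 182.2 to 528.9, 568.2 and 624.7. Its log2 fold change was 1.66 (SE 0.11, adjusted p = 0.000216, limma with Benjamini-Hochberg), with no overlap between groups. TGFBR2, a receptor, rose by 1.57 and SMAD2, a signal carrier, by 0.82, whereas SMAD3 fell by 0.64 on the log2 scale (adjusted p = 0.00185, 0.00280 and 0.00642, limma with Benjamini-Hochberg). The receptor TGFBR1 had a log2 fold change of -0.56, with each treated value below each Control value. Its adjusted p of 0.0110 is not a call (limma with Benjamini-Hochberg). This p was 0.00292 without DCC-2036 library 3 and 0.00234 with equal library totals (limma). It was also under 0.01 with at least 10 in all libraries, a pseudocount of 10 or a trend in limma. In the other direction, it was 0.0233 with no filter on low values and 0.0427 without Control library 1 (limma). TGFBR2 lost its call without Control library 3 (adjusted p = 0.0102, limma), and SMAD2 and SMAD3 lost theirs without any 1 Control library or without DCC-2036 library 2 (adjusted p up to 0.0145 and 0.0293, limma).

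**Figure D3:**
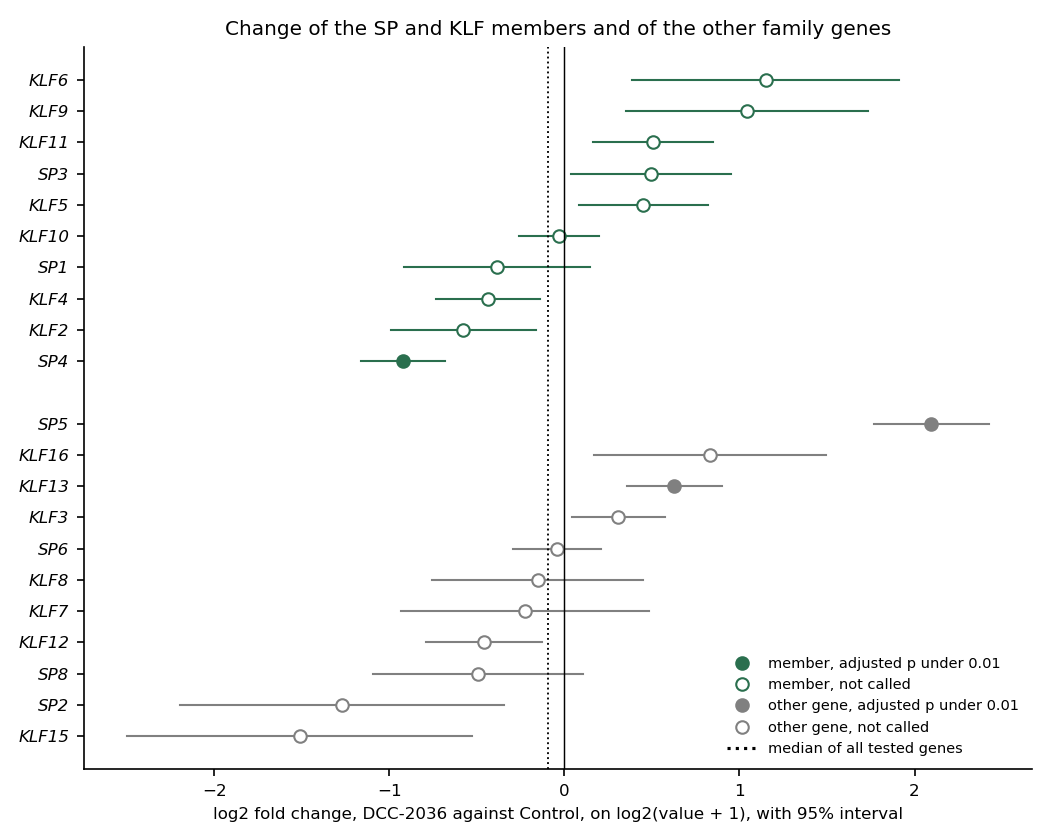
Log2 fold change of DCC-2036 against Control on the log2(value + 1) scale, with 95% intervals, for the 10 members in green and the 11 other tested SP and KLF genes in grey. Filled points have an adjusted p under 0.01 (limma with Benjamini-Hochberg), and the dotted line is the median of all tested genes, -0.09. Of the members SP4 is filled, and of the other genes SP5 and KLF13.

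Levels can be compared between genes only per length, here as the value per 1000 bases of the longest GENCODE transcript linked to a gene's deposited transcripts. In Control the order of these mean levels was KLF10 (563.6), KLF5 (402.5), SP1 (370.8), KLF4 (295.4), SP3 (290.6), KLF6 (204.8), KLF2 (117.4), SP4 (40.1), KLF11 (25.5) and KLF9 (4.99). Neighbours in this order did not overlap over the 3 Control libraries, apart from KLF4 and SP3, whose ranges were 266.6 to 326.6 and 265.8 to 305.3. In DCC-2036 the order of the mean levels was KLF5 (557.2), KLF10 (552.6), KLF6 (488.3), SP3 (417.0), SP1 (292.4), KLF4 (218.3), KLF2 (77.4), KLF11 (36.3), SP4 (21.0) and KLF9 (10.9). With DCC-2036 each of KLF5, KLF10, KLF6, SP3 and SP1 overlapped the next gene in this order, and KLF6 ran from 292.7 to 736.2, so the places of these genes and of KLF4 are not separated. The place of SP1 in both orders depends on the length taken for it. Its leading transcript is linked to a GENCODE transcript of 2846 bases and another to one of 7603 bases. With the shorter length its Control level would be 990.5, and its DCC-2036 level would be higher by the same factor.

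The DCC-2036 libraries lay at different distances from Control in the table as a whole. The median absolute difference from the Control mean over all tested genes was 0.50 in DCC-2036 library 1, 0.61 in library 2 and 0.74 in library 3 on the log2 scale. Of the tested genes, 20.1% were farthest from Control in library 1, 19.5% in library 2 and 60.4% in library 3, and of the 10 members 3, 2 and 5 were. The median SD between libraries on the log2 scale was 0.10 in Control and 0.23 in DCC-2036. Members with a wide treated group were thus SP1, SP3, KLF5, KLF6 and KLF9, while SP4, KLF2 and KLF10 had treated SDs under 0.1 on the log2 scale.

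The remaining genes of both families can be set beside the members. Of the 6 other SP genes, 4 were tested, with a median log2 fold change of -0.27. Of these, 1 was called higher and 0 lower, against 19.2% and 22.7% of all tested genes. At an unadjusted p under 0.05, 1 was higher and 1 lower (limma), against 30.5% and 36.1%. SP5, a target of Wnt signalling that binds the same boxes as SP1, rose from 16.9, 17.6 and 15.6 to 66.4, 88.5 and 70.5, a log2 fold change of 2.10 (SE 0.14, adjusted p = 0.000216, limma with Benjamini-Hochberg), higher than that of any member. SP2 went from 589.5, 583.0 and 603.8 to 427.8, 252.3 and 136.4, again with library 3 farthest, and its log2 fold change of -1.27 was not a call (adjusted p = 0.0270, limma with Benjamini-Hochberg; 0.00237 without DCC-2036 library 1, and 0.0628 to 0.0721 without DCC-2036 library 2 or any 1 of the Control libraries). Without DCC-2036 library 3 it was -0.85. SP6 had overlapping groups and a log2 fold change of -0.04, 0.0375 with median-of-ratios scaling and -0.24 with equal library totals, and stood at 0.05 relative to the median of all tested genes under each. SP7 was listed at 0 in Control and at 5.2, 10.8 and 11.6 in DCC-2036, too low to be tested.

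Of the 10 other KLF genes in the table, 7 were tested, with a median log2 fold change of -0.15. Of these, 1 was called higher and 0 lower, against 19.2% and 22.7% of all tested genes. At an unadjusted p under 0.05, 3 were higher and 2 lower (limma), against 30.5% and 36.1%. KLF13, a relative of KLF9, rose from 1443, 1328 and 1438 to 2301, 2281 and 1942, a log2 fold change of 0.63 (adjusted p = 0.00374, limma with Benjamini-Hochberg). All treated values lay above Control, but the call was lost without any 1 of the Control libraries or without DCC-2036 library 2 (adjusted p up to 0.0210, limma), with equal library totals (adjusted p = 0.0293, limma) and with the replicate block (0.0165).

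Corepressors and coactivators carry out what these factors do at promoters. Of 16 cofactors, all tested, 5 were called higher and 1 lower, against 19.2% and 22.7% of all tested genes, with a median log2 fold change of 0.24. HDAC2, a histone deacetylase of the SIN3 complex, rose from 1604, 1569 and 1491 to 3026, 4000.0 and 5357, a log2 fold change of 1.37 (adjusted p = 0.00215, limma with Benjamini-Hochberg). Its partner HDAC1 rose by 0.56 and the acetyltransferase CREBBP by 0.77 (adjusted p = 0.00548 and 0.00269, limma with Benjamini-Hochberg). All 3 calls were lost when any 1 Control library was left out (adjusted p up to 0.0113 for HDAC2, 0.0275 for HDAC1 and 0.0151 for CREBBP, limma), and the last pair also without DCC-2036 library 2. HDAC1 lost its call with equal library totals too (adjusted p = 0.0156, limma). The corepressors of the list did not all rise. SIN3B had a log2 fold change of -0.59 and CTBP1 of -0.82, with each treated value below each Control value. Neither was called (adjusted p = 0.0296 and 0.0385, limma with Benjamini-Hochberg). SIN3A, at 0.15, and CTBP2, at -0.16, were not called either. Among subunits of Mediator, which SP1 needs for activation in purified systems, MED26 rose by 1.46 and MED23 by 0.81, and MED7 fell by 1.54 on the log2 scale (adjusted p = 0.00176, 0.00105 and 0.000499, limma with Benjamini-Hochberg). These 3 calls held when any 1 library was left out.

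SP and KLF proteins are also modified by ubiquitin ligases and by enzymes that add or remove a sugar. All 8 enzymes of that list were tested, and 4 were called higher and 0 lower, against 19.2% and 22.7% of all tested genes. At an unadjusted p under 0.05, 7 were higher and 0 lower (limma), against 30.5% and 36.1% of all tested genes. The median log2 fold change was 0.77, the highest of the lists around the factors. SMURF1, a ubiquitin ligase, rose from 1254, 1097 and 1160 to 2003, 2936 and 3733, a log2 fold change of 1.26 (adjusted p = 0.00399, limma with Benjamini-Hochberg). SIAH1 rose by 1.17, RNF4 by 0.84 and VHL by 0.63 (adjusted p = 0.00747, 0.00232 and 0.00482, limma with Benjamini-Hochberg), and the calls of all 4 were lost without any 1 of the Control libraries or without DCC-2036 library 2, with an adjusted p of up to 0.0277 (limma). With equal library totals SIAH1 and VHL lost theirs as well (adjusted p = 0.0108 and 0.0125, limma). FBXW7, a ligase for KLF5, had a log2 fold change of 0.90 and OGT, which adds the sugar, of 0.70, at adjusted p-values of 0.0149 and 0.0261 (limma with Benjamini-Hochberg).

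Of 11 genes with known SP1 sites, all tested, 3 were called higher and 3 lower, against 19.2% and 22.7% of all tested genes, and the median log2 fold change was -0.06, so that the list did not move in 1 direction. VEGFA, an angiogenic factor, rose from 714.6, 664.5 and 698.6 to 1251, 1445 and 1495, a log2 fold change of 1.01 (adjusted p = 0.000730, limma with Benjamini-Hochberg). ODC1 rose by 0.74, and TGFBR2 belongs to this list too, whereas TK1, CCND1 and BIRC5 had log2 fold changes of -0.76, -0.77 and -0.68. These calls other than VEGFA and TGFBR2 had adjusted p-values from 0.00250 to 0.00564, and of up to 0.0245 without any 1 of the Control libraries or without DCC-2036 library 2, where they were lost (limma with Benjamini-Hochberg). TK1 lost its call with median-of-ratios scaling as well (adjusted p = 0.0112, limma).

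Of 10 known KLF targets, 7 were tested, 0 were called higher and 3 lower, against 19.2% and 22.7% of all tested genes, with a median log2 fold change of -0.40. At an unadjusted p under 0.05, 1 was higher and 3 lower (limma), against 30.5% and 36.1%. CCNB1, a mitotic cyclin that KLF4 represses and KLF5 activates, fell from 6323, 6768 and 6830 to 2114, 1964 and 1862.5, a log2 fold change of -1.75 (adjusted p = 0.000193, limma with Benjamini-Hochberg). NOS3, a target of KLF2 in endothelium, fell by 1.47 on the log2 scale (adjusted p = 0.000274, limma with Benjamini-Hochberg), and CCND1, also an SP1 target, is the third. CDKN1A, which SP1, KLF4 and KLF6 activate, had a log2 fold change of 0.60 and an adjusted p of 0.0142, of 0.00120 without DCC-2036 library 3 and of 0.0530 without DCC-2036 library 2 (limma with Benjamini-Hochberg). With equal library totals the log2 fold change was 0.40 (adjusted p = 0.0881, limma), and median-of-ratios scaling and a trend in limma brought the adjusted p under 0.01.

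**Figure D4:**
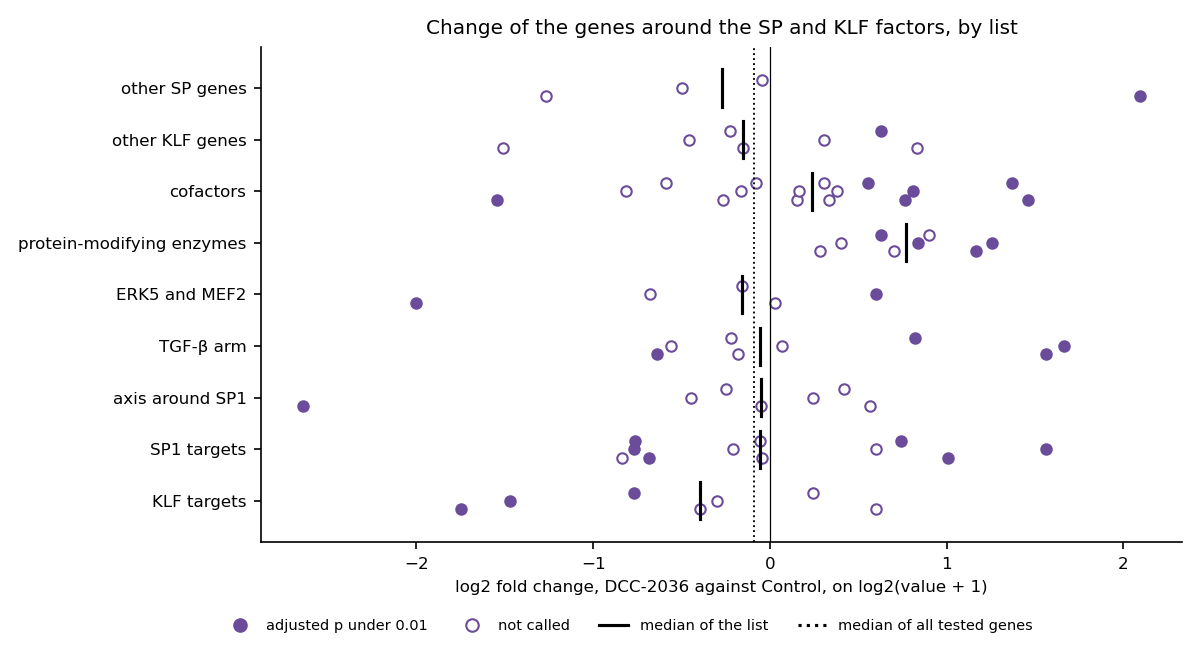
Log2 fold change of DCC-2036 against Control on the log2(value + 1) scale for each tested gene of the lists around the SP and KLF factors, 1 point per gene, spread vertically for legibility. Filled points have an adjusted p under 0.01 (limma with Benjamini-Hochberg), short black lines are list medians and the dotted line is the median of all tested genes, -0.09. The protein-modifying enzymes have the highest median, 0.77.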

How the data were processed

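RNA of 3 Control and 3 DCC-2036 libraries of LoVo cells was grouped by the titles in the labels. The deposited table holds, for each of 45006 RefSeq transcripts, a signal the authors had brought to common depth; aligner, counter and genome build are not given in the sources used here. Every DCC-2036 library has 39309 transcripts above 0 and the Control libraries 36928 to 37162, so values near 0 were not handled alike. Columns of the authors' own fold changes, p-values and q-values were not used, and 0 other columns of sample values were present.

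Per symbol the transcript with the highest mean was kept, and genes reaching 10 in 3 or more libraries were tested on log2(value + 1) with limma 3.58.1 in R 4.3.3, called at an adjusted p under 0.01. The code was tested on simulated data. Tables and figures used Python 3.11.15 (pandas 2.3.3, numpy 2.4.6, matplotlib 3.10.9), and exact permutation tests with scipy 1.17.1. Positions and lengths came from GENCODE 29, promoters from RefSeq. Named genes were the members, examples from gene lists and the 5 genes most like SP1. Members and lists were chosen with earlier results of these data known, and 1 planned list gene is not reported here. Alternatives were 3 scalings, 2 filters, 2 pseudocounts, a trend in limma, a replicate block, sums of transcripts, a limit of 0.05 and each library left out; they were extended to genes outside the members and the ratios after the data were seen.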

Additional observations from a re-analysis of the deposited data

How the results depend on the processing

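SP4 was called lower under every alternative run, with a log2 fold change between -1.12 and -0.84 and an adjusted p (limma) between 0.000429 and 0.00605. SP1 was not called under any, between -0.58 and -0.14; with libraries left out in turn its log2 fold change lay between -0.58 and -0.14. The number of members called higher was 0, but 1 with a trend in limma, 4 with a limit of 0.05, and 0 to 2 with libraries left out. The number called lower was 1, 3 with a limit of 0.05, and 1 with any library left out. KLF10 turned from -0.03 to 0.0518 with median-of-ratios scaling, and SP6 from -0.04 to 0.0375; with libraries left out KLF10 lay between -0.0752 and 0.0016 (above 0 without DCC-2036 library 1) and SP6 between -0.1021 and 0.0051 (above 0 without Control library 3). Relative to the median of all tested genes KLF10 stood at 0.06 and SP6 at 0.05 under each scaling, because a scaling moves all genes by nearly the same amount. The turns with median-of-ratios scaling come from that shift, and those with a library left out were not examined further. Scaling to equal totals moved the median of all tested genes from -0.09 to -0.29. SP1 moved with it and so stood at -0.29 relative to that median under both. It left 1669 genes higher and 3442 lower, 32.7% of calls higher against 45.8% (2442 and 2887). With libraries left out, 928 to 2675 genes were called higher and 1514 to 3507 lower; without DCC-2036 library 1 or 3 both counts were above those with all libraries.

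With the replicate number as a block, 1202 genes were called higher and 1909 lower, and 0 and 1 of the members. The deviations of libraries with the same number correlated at 0.081, -0.035 and -0.0033, so the numbers do not pair the samples. With this block KLF13, MEF2D, SMAD2, SMAD3, HDAC1, CREBBP, SMURF1, SIAH1, VHL, CCND1 and KRT20 lost their calls (adjusted p up to 0.0240, limma), and with median-of-ratios scaling TK1 did. Of 41 other genes run from the lists, 40 kept their direction under all alternatives and 11 kept direction and call. With no filter on low values MEF2D, SMAD3, HDAC1, SIAH1, VHL, TK1, CCND1 and KRT20 lost their calls (adjusted p up to 0.0167, limma). With equal totals KLF5 and KLF11 went above an adjusted p of 0.05, and KLF13, MEF2D, HDAC1, SIAH1 and VHL above 0.01. The ratios kept their direction. Depth behind a value is unknown, which limits KLF9 and the genes listed near 0 most.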

Other observations

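Some genes of both families were too low to be tested. SP9 was at 2.8, 3.5 and 3.7 in the Control libraries and at 2.1, 12.7 and 1.4 in the treated ones, with 1 treated library apart from the rest. KLF1 was listed at 0, 0.9 and 0 without and at 2.1, 3.3 and 5.7 with DCC-2036, and KLF14 at 7.5, 8.8 and 6.4 without and at no more than 4.2 with it. The groups did not overlap in KLF1 and KLF14, at values under the filter of 10, where the groups were not handled alike near 0.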
